A study of Mus musculus with 4 samples.

Results

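Agrin, MuSK, rapsyn, neuregulin 1 with its receptors ErbB2 and ErbB3, and the transcription factor subunit GABP alpha carry the signals that gather acetylcholine receptors at the nerve-muscle synapse and drive transcription in the muscle nuclei beneath it. The 7 genes (Agrn, Musk, Rapsn, Erbb2, Erbb3, Nrg1 and Gabpa) were looked up by symbol, and every probe set annotated with 1 of these symbols and no other was taken, however dim. This gave 8 probe sets for 5 genes, out of 8251 genes named by such probe sets on the array. Agrn, Erbb3 and Gabpa had 2 probe sets each and Musk and Rapsn had 1, while no probe set is named here for Erbb2 or Nrg1. Total RNA of mouse skeletal muscle was hybridised to 4 oligonucleotide arrays, whose titles carry the code J (arrays J 1a and J 1c) or NJ (arrays NJ 1a and NJ 1d), both with the code Ctr and a time of 0 h. The codes are used as given, since the labels do not spell them out, and no strain, age, sex, treatment or muscle is stated. The title of the series names the neuromuscular junction, and the comparison is J against NJ with 2 arrays in each group. Nothing says that the arrays come from separate animals, so the spread between them may be technical.

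As background, the motor nerve terminal releases agrin, which binds LRP4 on the muscle fibre and activates the receptor tyrosine kinase MuSK with the help of the adaptor DOK7. MuSK signalling leads rapsyn, a protein under the membrane, to cluster the acetylcholine receptors. Neuregulin 1 acts through receptor dimers in which ErbB3, whose own kinase is weak, pairs with a partner such as ErbB2, and it is best known in nerve as the axonal signal that Schwann cells need. GABP alpha is an ETS factor that binds, with GABP beta, a short element called the N box in the promoters of several synaptic genes, of which the acetylcholine receptor epsilon subunit gene Chrne is a well-studied case.

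The promoters that bear on this transcriptional step are shown first, from RefSeq in the GRCm38.p6 build, as stretches upstream of an annotated start, read 5′ to 3′ on the strand of the gene. Capitals mark the N box core in Gabpa and Chrne, searched as TTCCGG on both strands (CCGGAA on the other), and the E box, CANNTG, in Musk, the element that myogenic factors such as myogenin bind. The Gabpa stretch lies at chr16:84834985-84835084 on the plus strand, the Chrne stretch at chr11:70619218-70619317 on the minus strand and the Musk stretch at chr4:58285768-58285916 on the plus strand.
Gabpa: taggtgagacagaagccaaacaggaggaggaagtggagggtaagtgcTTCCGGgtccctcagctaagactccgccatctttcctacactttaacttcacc
Chrne: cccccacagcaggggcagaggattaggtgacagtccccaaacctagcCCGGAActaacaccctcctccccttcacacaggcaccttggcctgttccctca
Musk: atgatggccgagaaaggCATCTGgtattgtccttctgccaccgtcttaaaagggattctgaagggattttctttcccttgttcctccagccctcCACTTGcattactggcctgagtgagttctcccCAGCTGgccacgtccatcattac

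The core begins 92 bases before the start in Gabpa and 76 bases before it in Chrne. Of the 7 genes, 4 had a promoter entry (Agrn with 2 starts, Musk, Erbb2 and Gabpa), 5 windows of 300 bases in all. The N box core was in 1 of these 5 windows, that of Gabpa, and in 14.9% of all 32851 promoter windows of the same length. An E box was in 3 of the 5 and in 72.3% of all windows. The Musk window held 3 E boxes, and 17.6% of all windows held at least 3. N box and E box matches did not overlap each other in these windows. These matches describe letters in a window and are not measured binding.

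Muscle fibre RNA was present on every array. Skeletal actin Acta1, fast myosin Myh4 and fast troponin Tnnt3 were among the brightest probe sets on every array. The summed signal of 10 muscle fibre markers was 960301 and 190489 on J 1a and J 1c, against 773087 and 626795 on NJ 1a and NJ 1d, although the trimmed mean of all probe sets was 800.5 to 800.6 on each array. The deposited signal was lowest on J 1c at 8 of the 10 markers, and after quantile normalisation at 4 of the 10. The median normalised difference was −0.07 over the 9 tested markers, 4 higher and 5 lower in J, and −0.14 between J 1c and NJ 1d. At Actn3 and Myh4 the difference was larger, −1.18 and −1.13, or −2.21 and −2.14 between J 1c and NJ 1d. At these 2 the lower signal of J 1c thus remained after normalisation. The values of both arrays labelled 1a are given to full digits and those of J 1c and NJ 1d to 1 decimal, which makes a full-digit pair (J 1a and NJ 1a) and a 1-decimal pair (J 1c and NJ 1d), and differences are also given within each pair. Signals below are the deposited intensities in array units. Each difference is the mean of J minus that of NJ, in units of log2(signal + 32) of quantile-normalised arrays, with the standard error (SE) of limma's fit to 2 arrays per group. These units understate changes of dim probe sets. Signals of different probe sets cannot be compared with each other.

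None of the 5 genes separated J from NJ. Of the 8 probe sets, 5 were bright enough to test (mean above the 25th percentile of all probe sets), and 0 of them were called by limma at a Benjamini-Hochberg adjusted p under 0.05 (adjusted p = 0.999 for each), against 0% of all 9317 probe sets tested. At an unadjusted p under 0.05, 0 of the 5 were called, against 199 probe sets or 2.14% of all tested. The J and NJ values overlapped at all 8 probe sets, whereas the groups did not overlap at 26.4% of all probe sets tested. Such counts of overlap, here and for the lists below, are taken on the normalised values. Of the tested 5, 1 had a higher and 4 a lower mean log2 level in J, with a median difference of −0.17, beside −0.01 over all probe sets tested. Their median difference without regard to sign was 0.36, beside 0.39 over all tested. With 2 arrays in each group, the smallest two-sided p of an exact permutation test is 0.333.

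**Figure D1:**
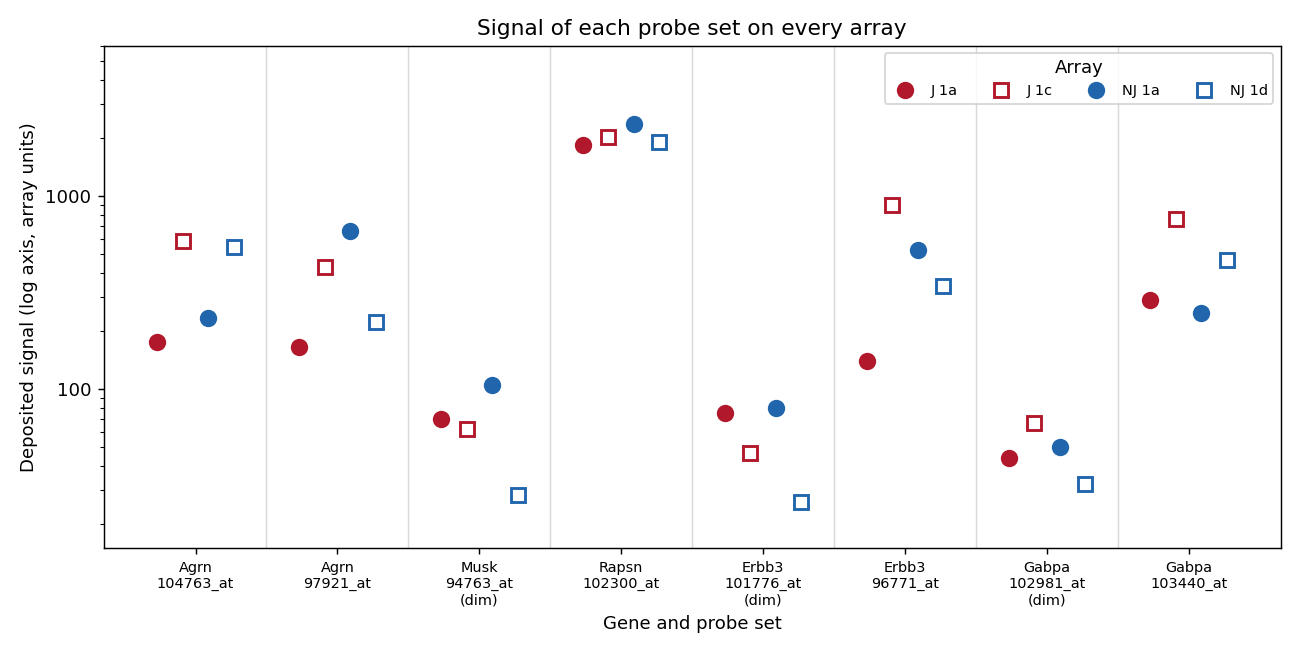
Deposited signal (log axis, array units) of the 8 probe sets of Agrn, Musk, Rapsn, Erbb3 and Gabpa, with 1 point for each array (red for J, blue for NJ, filled circles for the 1a arrays, open squares for J 1c and NJ 1d). The J and NJ points overlap at each of the 8 probe sets, and probe sets marked dim were too dim to test.

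Agrn, the gene of the nerve-derived clustering signal, which muscle and other cells also transcribe, had 2 tested probe sets with different patterns. Probe set 104763_at had signals of 176 and 585 on J 1a and J 1c, against 233 and 548 on NJ 1a and NJ 1d. The arrays labelled 1a were thus both low and the other 2 both high, whichever group they belonged to. The difference was −0.17 ± 0.90 (SE), with a 95% interval from −2.19 to 1.86. Probe set 97921_at had 166 and 428 on J 1a and J 1c, against 657 and 223 on NJ 1a and NJ 1d, so the NJ arrays held the highest signal but also 1 below J 1c. It differed by −0.62 ± 0.85, with an interval from −2.52 to 1.29. Leaving out J 1a turned both differences to positive values, 0.76 at 104763_at and 0.12 at 97921_at, and leaving out NJ 1d turned that of 104763_at to 0.52. The distance between the profiles of these 2 probe sets over the 4 arrays, each centred on its own mean, was 1.89, close to the median distance of 1.86 between 104763_at and all other named profiles. Both probe sets derive from expressed sequence tags, and which agrin splice forms they detect is not stated in the sources used here. Of 10 markers of neurons and axons, 9 had a probe set, none at 0, and their summed signal was 7779 and 3423 on J 1a and J 1c, against 4211 and 4302 on NJ 1a and NJ 1d. J 1a held the highest signal at 6 of the 9, whereas it was the lowest array at both Agrn probe sets. Of the 7 tested, 3 were higher and 4 lower in J, the median difference being −0.01. The list median was 1.15 in the full-digit and −0.51 in the 1-decimal pair. Whether nerve content plays a part in the Agrn values was not tested, and in bulk RNA fewer cells of a type and less RNA per cell cannot be told apart.

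Musk, the gene of the agrin-activated receptor kinase, was too dim to test. Its only probe set, 94763_at, had signals of 70.3 and 61.9 on J 1a and J 1c, against 105 and 28.1 on NJ 1a and NJ 1d. Depending on the array, 8.91% to 22.2% of all probe sets had a signal no higher than this, and both J values fell between the NJ values. In a fit without the filter it differed by 0.03 ± 0.55, with an interval from −1.23 to 1.28. A level so close to the dim end bounds what these arrays can show of Musk.

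Rapsn, the gene of the receptor-anchoring protein rapsyn, was steady across the arrays. Its probe set 102300_at had signals of 1829 and 2016 on J 1a and J 1c, against 2354 and 1906 on NJ 1a and NJ 1d. The means were 1923 ± 132 in J and 2130 ± 317 in NJ (SD, n = 2 each), and J 1c lay between the NJ arrays while J 1a lay below them. The range over the 4 arrays was 0.37 on the normalised log2 scale, and 4.51% of all probe sets tested had a smaller one. The difference was −0.16 ± 0.39, with an interval from −1.05 to 0.72, the narrowest of the 5 tested. It was 0.01 without NJ 1a.

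Erbb3, the gene of the neuregulin receptor with the weak kinase, had 1 tested and 1 dim probe set. Probe set 96771_at had signals of 139 and 904 on J 1a and J 1c, against 525 and 344 on NJ 1a and NJ 1d. The lowest and the highest signal were both J, so the spread within J exceeded the distance between the groups. The mean signals were 522 ± 541 in J and 434 ± 128 in NJ (SD, n = 2 each), while on the log2 scale the difference was −0.36 ± 0.93, with an interval from −2.45 to 1.73. Its range over the arrays, 2.67 on the log2 scale, was larger than that of 91.1% of all probe sets tested. The difference was 1.01 without J 1a and −1.68 without J 1c. The dim probe set 101776_at had 75.0 and 46.7 on J 1a and J 1c, against 80.2 and 26.0 on NJ 1a and NJ 1d, and differed by 0.11 ± 0.49 without the filter. Here the NJ arrays held both the highest and the lowest signal. Probe set 96771_at derives from an expressed sequence tag and 101776_at from an mRNA or other source. Their centred profiles lay 2.02 apart, beside a median distance of 2.11 between 96771_at and all other named profiles. The 96771_at pattern thus rests on that probe set alone.

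Schwann cells express Erbb3, so their markers were set beside it. Of 10 Schwann cell markers 7 had a probe set, none at 0, and 2 of the 7 were higher and 5 lower, the median difference being −0.27. Their summed signal was 5080 and 4120 on J 1a and J 1c, against 6113 and 3390 on NJ 1a and NJ 1d. J 1a held the lowest signal at 3 and the highest at 2 of the 7 markers, and the list median was −0.68 in the full-digit pair (J 1a and NJ 1a) and 0.26 in the 1-decimal pair (J 1c and NJ 1d). The part of Schwann cell RNA in the Erbb3 values was not tested.

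Gabpa, the gene of the N box-binding subunit, was the only 1 of the 4 tested genes with a higher mean in J on the log2 scale. Probe set 103440_at had signals of 291 and 759 on J 1a and J 1c, against 248 and 466 on NJ 1a and NJ 1d. The signal was higher in J within each pair, but J 1a lay below NJ 1d, so the groups overlapped. The difference was 0.37 ± 0.82, with an interval from −1.48 to 2.22, and it was −0.37 without J 1c and −0.21 without NJ 1a. The dim probe set 102981_at had 43.7 and 66.5 on J 1a and J 1c, against 50.3 and 32.1 on NJ 1a and NJ 1d, and differed by 0.17 ± 0.47 without the filter. Probe set 103440_at derives from an expressed sequence tag and 102981_at from an mRNA or other source. Their centred profiles lay 0.94 apart, beside a median distance of 1.67 between 103440_at and all other named profiles. Gabpb1, the gene of the partner subunit, differed by −0.16 ± 0.76 (limma adjusted p = 0.999).

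**Figure D2:**
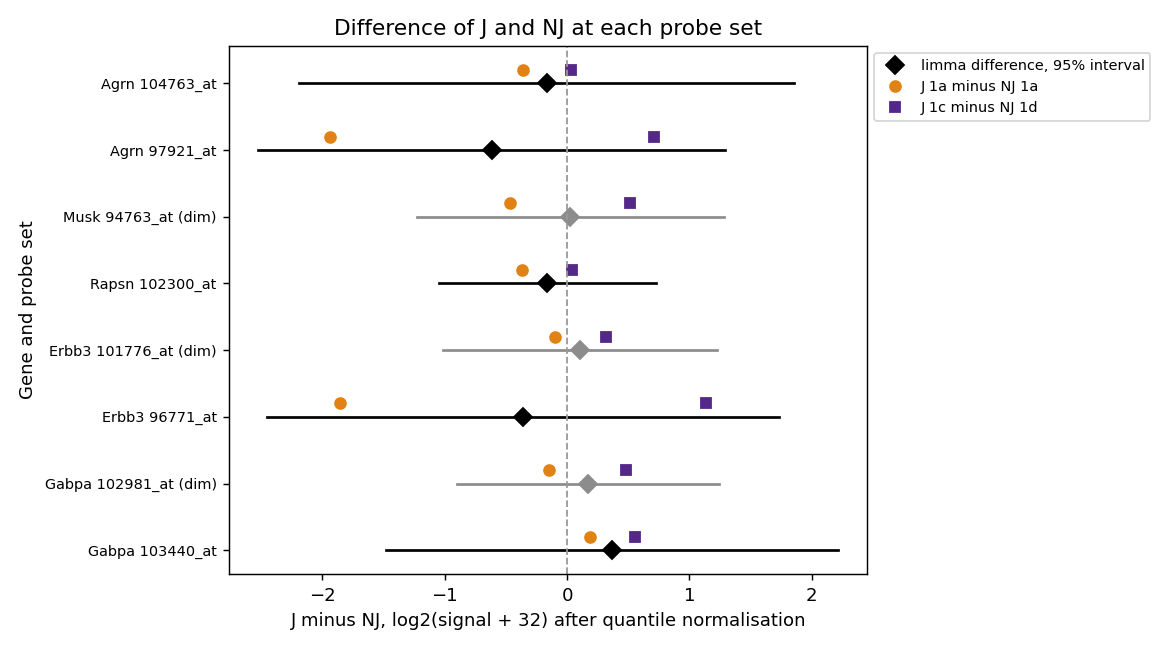
J minus NJ on the log2(signal + 32) scale at each of the 8 probe sets, as the limma difference (diamonds) with its 95% interval (bars, grey where too dim to test and taken from the fit without the filter), in the full-digit pair J 1a and NJ 1a (circles) and in the 1-decimal pair J 1c and NJ 1d (squares). Every interval spans 0, and the circle lies below 0 and the square above it at 7 of the 8.

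For most of these genes the pairs of arrays gave opposite signs, in some by a small margin. In the full-digit pair 7 of the 8 probe sets were lower in J, and in the 1-decimal pair all 8 were higher. The sign thus differed between the pairs at 7 of 8 probe sets, and at 4 of the 5 tested, beside 50.7% of all probe sets tested. The differences of Agrn 97921_at were −1.94 in the full-digit pair and 0.71 in the 1-decimal pair. Erbb3 96771_at differed by −1.85 in the full-digit and 1.13 in the 1-decimal pair. Agrn 104763_at differed by −0.36 in the full-digit and 0.03 in the 1-decimal pair, and Rapsn by −0.37 and 0.04. The 1-decimal differences of Agrn 104763_at and Rapsn were thus very small. Gabpa 103440_at was the exception, at 0.18 in the full-digit and 0.55 in the 1-decimal pair. J 1a was the lowest array at 4 of the 5 tested probe sets, beside 31.8% of all tested, and J 1c the highest at 3, beside 22.1%. Without regard to sign, the median distance of J 1c and NJ 1d from the 1a arrays was 1.17 over the 5 and 0.52 over all tested. Number format and replicate label cannot be told apart, since the full-digit arrays are those labelled 1a.

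**Figure D3:**
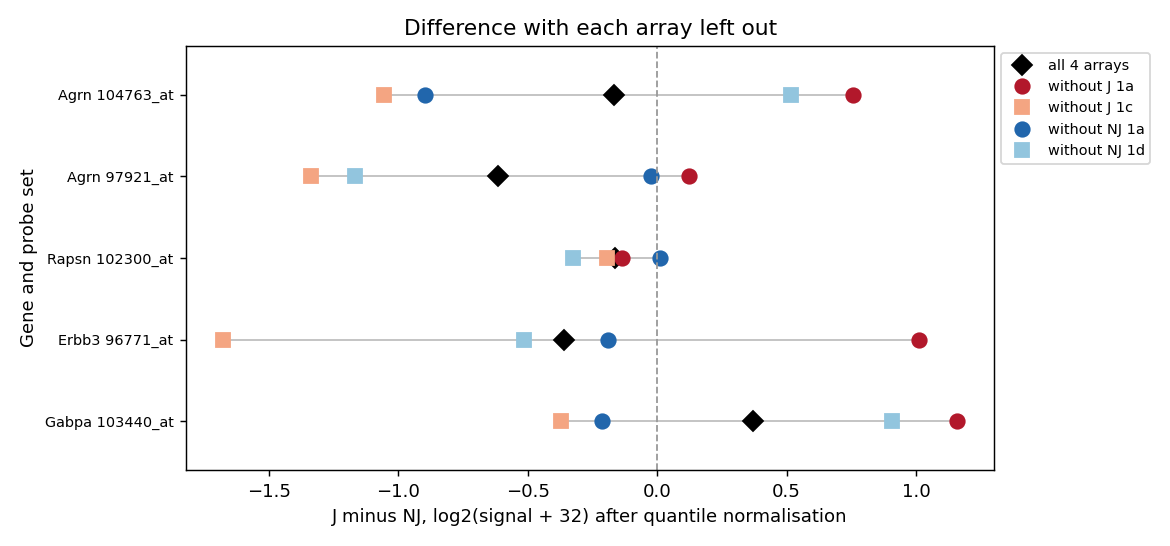
J minus NJ on the log2(signal + 32) scale of the 5 tested probe sets with all 4 arrays (black diamonds) and with each array left out (coloured points), a grey line joining the lowest and highest. The line crosses 0 at each of the 5, from −1.68 to 1.01 at Erbb3 and from −0.33 to 0.01 at Rapsn.

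The profiles most like these genes over the 4 arrays were found by distance between centred log2 profiles, as a description. Nearest to Agrn 104763_at were Gata4 (distance 0.05) and the receptor subunit gene Chrnb1 (0.07), and 113 of 8294 profiles lay within 0.5. Nearest to Gabpa 103440_at were Rbm6 (0.10) and Elk4 (0.15), with 132 of 8295 profiles within 0.5. Nearest to Erbb3 96771_at were Apex1 (0.24) and Ncdn (0.27), with 35 within 0.5. Rapsn, whose profile is nearly flat, had 1139 profiles within 0.5, the nearest being Flot1 and Mok (both 0.03). With 4 arrays, 35 to 1139 profiles thus lay within 0.5, and how many lay as near as the named genes was not counted. Nearness here does not show that genes act together.

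The wider pathway was described through lists of genes chosen around these signals, the brightest probe set standing for each gene. All lists were chosen with earlier results of these data known. Of all 6774 genes tested, 3316 were higher and 3458 lower, the median difference was −0.01, and limma called 0.

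Partners in receptor clustering downstream of agrin were split. Of 30 genes 24 had a probe set and 22 were tested, 13 of them higher and 9 lower, with 0 called and a median of 0.20. The J arrays were both above the NJ arrays at 6 of the 22, beside 13.6% of all probe sets tested, and both below them at 2, beside 12.8%. Src, a tyrosine kinase that acts on the receptor clusters, had signals of 132 and 357 on J 1a and J 1c, against 886 and 574 on NJ 1a and NJ 1d, and differed by −1.66 ± 0.78, or −0.92 without J 1a. Fyn, a kinase of the same family, had 539 and 344 on J 1a and J 1c, against 225 and 73.9 on NJ 1a and NJ 1d, and differed by 1.43 ± 0.79. The groups did not overlap at either kinase, with Src lower and Fyn higher in J, and neither was called (limma adjusted p = 0.999 for both). Cttn, the gene of the actin-binding protein cortactin, differed by −0.95 ± 0.72, with −2.31 in the full-digit and 0.41 in the 1-decimal pair, and by 0.13 without J 1a. The matrix receptor gene Dag1, dystroglycan, which binds agrin, differed by −0.34 ± 0.36, with no overlap between the groups.

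Genes of the neuregulin and ErbB pathway gave 9 higher and 5 lower of 14 tested, 0 called and a median of 0.13. Of 29 genes 19 had a probe set. The J arrays were both above the NJ arrays at 1 of the 14 and both below them at 1, beside 13.6% and 12.8% of all probe sets tested. Their median was −0.27 in the full-digit pair and 0.48 in the 1-decimal pair, the same signs as Erbb3 96771_at had in these pairs. These signs are not particular to this pathway. The Schwann cell, immune and endothelial marker lists had them too, while the muscle fibre and the neuron and axon lists had the reverse. Sos1, an activator of Ras, had signals of 495 and 405 on J 1a and J 1c, against 454 and 57.8 on NJ 1a and NJ 1d, and differed by 1.09 ± 0.89, or 0.05 without NJ 1d. These signals overlap between the groups, while the normalised values of Sos1 do not. Grb2, the adaptor that links receptors to Sos1, had 905 and 250 on J 1a and J 1c, against 377 and 125 on NJ 1a and NJ 1d, and differed by 1.02 ± 0.84, or 0.24 without J 1a. Jun, an immediate early transcription factor, differed by −0.60 ± 0.62, or −0.10 without NJ 1a. Egfr, the founding receptor of the ErbB family, differed by 0.17 ± 0.86. None of these was called (limma adjusted p = 0.999 for each).

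ETS factors and other regulators of synaptic transcription were more often higher than lower in J, at 13 against 5 of 18 tested, with 0 called and a median of 0.35, or 0.18 without NJ 1d. Of 26 genes 20 had a probe set. At 4 of the 18 both J arrays were above both NJ arrays and at 1 both were below, beside 13.6% and 12.8% of all probe sets tested. Ets1, an ETS factor related to GABP alpha, had signals of 623 and 465 on J 1a and J 1c, against 47.7 and 291 on NJ 1a and NJ 1d. The J signals were both above the NJ signals, and the difference was 1.81 ± 0.94, made up of 3.12 in the full-digit and 0.50 in the 1-decimal pair, and it was 0.63 without NJ 1a. Myog, the gene of the E box-binding factor myogenin, had 509 and 856 on J 1a and J 1c, against 379 and 214 on NJ 1a and NJ 1d, and differed by 1.02 ± 0.71 with no overlap, or by 0.56 without J 1c. Id1, an inhibitor of such factors, differed by −1.69 ± 0.95, with −3.63 in the full-digit and 0.26 in the 1-decimal pair, and by −0.57 without J 1a. None of these passed (limma adjusted p = 0.999 for each).

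**Figure D4:**
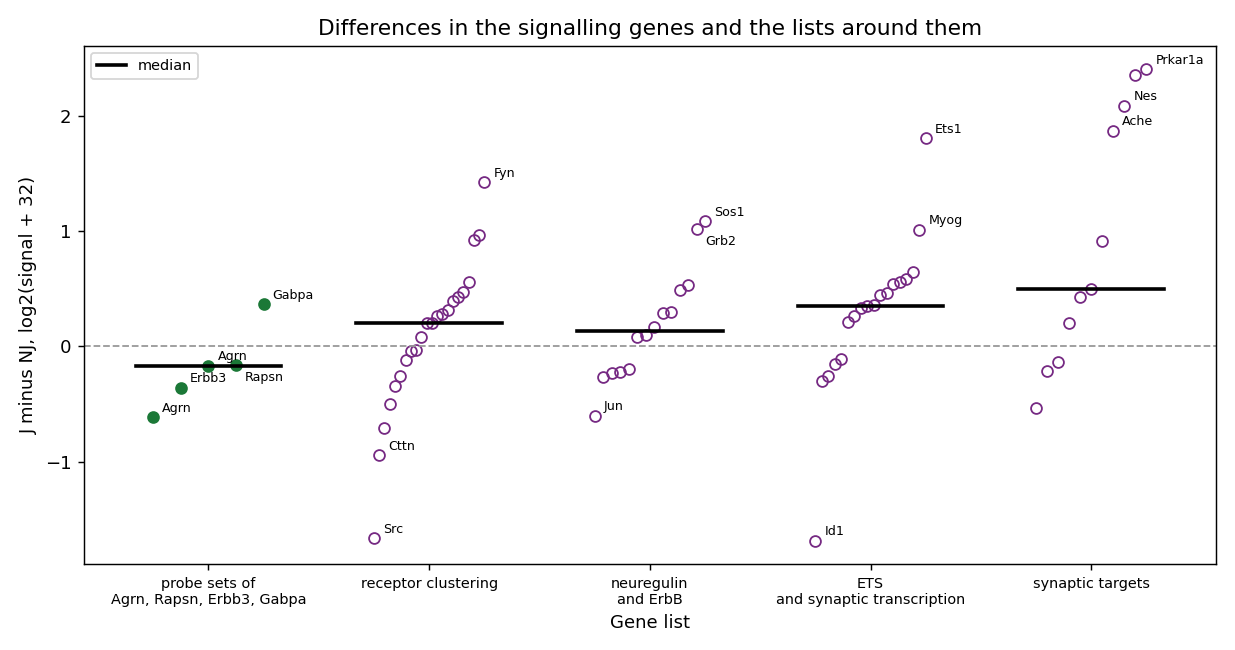
J minus NJ on the log2(signal + 32) scale for the 5 tested probe sets of Agrn, Rapsn, Erbb3 and Gabpa (filled green) and for the tested genes of 4 lists around them (open purple, 1 point a gene), with the median of each group as a black bar. The medians are −0.17 for the 5 probe sets and 0.20, 0.13, 0.35 and 0.50 for the lists from left to right.

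Genes listed as synaptic targets had the highest median of the 4 lists, 0.50, or 0.92 with the filter at the 50th percentile and 0.76 with the mean of a gene's probe sets. Whether the signals above act on each of these genes was not tested. Of 12 genes 11 were tested, 8 of them higher and 3 lower, with 0 called, and the J arrays were both above the NJ arrays at 6 of the 11, beside 13.6% of all probe sets tested. This list holds genes already known from these data to be high in J, so its direction is not independent evidence. Prkar1a, which encodes a regulatory protein kinase A subunit, had signals of 13636 and 14134 on J 1a and J 1c, against 2145 and 3722 on NJ 1a and NJ 1d, and differed by 2.41 ± 0.39. When a term for number format was added to the model, which leaves 1 residual degree of freedom, limma called 8 of all 9317 probe sets. Prkar1a (limma adjusted p = 6.0e-06) and Nes (limma adjusted p = 0.0043) were among these 8. Nes, the filament protein nestin, differed by 2.09 ± 0.45 at its brightest probe set and Ache, acetylcholinesterase, by 1.87 ± 0.77, or 0.91 without J 1a. Chrne, whose N box is printed above, had 744 and 810 on J 1a and J 1c, against 101 and 58.0 on NJ 1a and NJ 1d at probe set 92966_g_at. Probe set 92965_at had 773 and 508 on the J arrays, against 118 and 257 on the NJ arrays, and probe set 92967_r_at had 652 and 1008 on the J arrays, against 605 and 742 on the NJ arrays. The J values exceeded all NJ values at the first 2 of these probe sets and overlapped with them at 92967_r_at, and limma called none (adjusted p = 0.999 for each). Probe set 92967_r_at is the brightest and stands for Chrne in the list, with a difference of 0.20. The 3 genes lower in J were Chrnb1 (−0.21), Colq (−0.54) and Utrn (−0.14).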

How the data were processed

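Total RNA of mouse skeletal muscle was measured on 4 arrays, grouped as J or NJ by title. The authors deposited 1 linear intensity per probe set and array for 12488 probe sets, made with software not given in the sources used here. Column means after trimming 2% at each end are alike, as after scaling to a common level. Depth has no meaning for arrays, and their number limits the precision. Gene names came from the platform annotation: of the 12422 probe sets that are not controls, 10833 had 1 symbol, 396 several and 1193 none. Of 8251 symbols, 8237 matched RefSeq (GRCm38.p6) by gene ID. Intensities were taken as log2(value + 32), quantile normalised, filtered at the 25th percentile of the mean and fitted with limma 3.58.1 in R 4.3.3 (2 residual degrees of freedom; the variance prior of eBayes followed a trend with intensity), with Benjamini-Hochberg adjustment over all 9317 probe sets and a threshold of 0.05. Dim probe sets took their difference from a fit without the filter. Scripts were tested on simulated data with known changes and independent noise, for the sign and mean error of the differences. That simulation held no array or number-format effect, so it checks the code and not the calls made here.

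The genes and lists were chosen with earlier results of these data known. Named genes are all probe sets of the 7 genes, the 3 genes with the smallest unadjusted p in each of 4 lists, and the 2 nearest profiles per tested gene. Gabpb1, Egfr, Dag1, Chrne, Colq and Utrn were named outside this rule after their values were seen. The same holds for the markers Acta1, Myh4, Actn3, Mb, Tnnt3, Dcn, Postn, Kdr, Vwf and Cd79a. Alternatives were the deposited scale, median centring, a pseudocount of 1 or 100, dropping the filter or raising it to the 50th percentile, no trend, a number-format term, each array left out, and the mean of a gene's probe sets. The brightest probe set of each marker, dim ones included, entered the summed signals, and the fibroblast, endothelium and immune lists serve only as values below. Plots used matplotlib 3.10.9 (Python 3.11.15).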

Additional observations from a re-analysis of the deposited data

How the results depend on the processing

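None of the 5 tested probe sets of Agrn, Rapsn, Erbb3 and Gabpa passed limma's test under any alternative run, the smallest adjusted p being 0.569. Leaving out an array reversed their direction in 7 of 20 comparisons, while the deposited scale, median centring and other pseudocounts reversed 0 of 20. The filter, trend and number-format settings leave these differences unchanged by construction. With each array left out, the difference ranged from −1.06 to 0.76 at Agrn 104763_at, from −1.34 to 0.12 at Agrn 97921_at, from −0.33 to 0.011 at Rapsn, from −1.68 to 1.01 at Erbb3 96771_at and from −0.37 to 1.16 at Gabpa 103440_at. Among the other named genes Cttn reversed, with a range from −1.97 to 0.13, while the range was −2.41 to −0.92 at Src, 0.98 to 1.88 at Fyn, 0.05 to 2.15 at Sos1, 0.24 to 1.77 at Grb2, −1.08 to −0.10 at Jun, 0.63 to 2.97 at Ets1, −2.79 to −0.57 at Id1 and 0.91 to 2.80 at Ache, and the lowest value at Myog was 0.56. Over all probe sets, limma called 0 in the reported setting, 8 with a term for number format and 0 to 4 with each array left out (4 without J 1a). At an unadjusted p under 0.05 the 199 probe sets became 555 with that term, 867 without J 1c, 105 without NJ 1a and 102 with the filter at the 50th percentile. With the term, Prkar1a and Nes passed (limma adjusted p = 6.0e-06 and 0.0043). The median of the neuregulin and ErbB list, 0.13, ranged from −0.19 without J 1c to 0.25, and that of receptor clustering, 0.20, from 0.01 without NJ 1d to 0.26, and was 0.01 with the mean of a gene's probe sets. The cause of these shifts was not tested. No paired analysis was possible because the replicate labels of J and NJ share only 1a. The number-format term does pair the arrays, J 1a with NJ 1a and J 1c with NJ 1d, but by how their values are written and not by a label. Signal near the dim end limits what can be said of Musk, Erbb3 101776_at and Gabpa 102981_at.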

Other observations

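Marker lists of 3 further cell types gave no called gene (limma adjusted p = 0.999 for each), and their members differed in which array was lowest. The summed signal of 6 immune cell markers was 945 and 2839 on J 1a and J 1c, against 2594 and 2346 on NJ 1a and NJ 1d, with the lowest signal on J 1a at 3 of the 6. Cd79a alone gave 344 and 1696 of this sum on J 1a and J 1c, and 1591 and 1292 on NJ 1a and NJ 1d. The 4 tested immune markers had a median difference of −0.33, positive at 2. The sum of 7 fibroblast markers was 109179 and 43236 on J 1a and J 1c, against 60418 and 51846 on NJ 1a and NJ 1d, and the matrix protein gene Dcn alone gave 82874 of it on J 1a. The median difference of these 7 was 0.34, and it was positive at 5 of them. The largest was 3.43 ± 0.81 at Postn, with signals of 1311 and 700 on J 1a and J 1c, against 43.3 and 75.2 on NJ 1a and NJ 1d. The sum of 5 endothelial markers was 4674 and 4404 on J 1a and J 1c, against 4656 and 3662 on NJ 1a and NJ 1d, with J 1a lowest at 1 of the 5. The 4 tested among them had a median difference of 0.01, positive at 2. They ranged from −1.40 ± 0.96 at Kdr to 1.87 ± 0.72 at Vwf.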
